A study of Mus musculus with 8 samples.

Results

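Of 40603 paired cells, 609 were IgG2b-switched B cells, that is, cell barcodes with exactly 1 heavy-chain contig, exactly 1 light-chain contig and IGHG2B as the constant gene of the heavy chain. A contig is an assembled receptor transcript. The cells came from mouse spleen, taken on day 10 after immunization as germinal-centre B cells, which were enriched with peanut agglutinin beads and sorted. The series asked how Deltex-1 bears on these cells. Of the 8 libraries, 4 were labelled WT (genotype Dtx1+/+) and 4 DTX1_KO (Dtx1-/-), named below by group and replicate number, as in WT 1. All 8 shared the tissue, the day and the isolation. For the immunogen, the age and number of mice, the kind of deletion and the sort gates, the sources used here give nothing.

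IgG2b is the class made when a B cell joins its rearranged heavy-chain variable region to the Ighg2b constant gene, deleting the DNA between, which includes the constant genes of IgM, IgD, IgG3 and IgG1. Activation-induced deaminase starts class switching and also the somatic mutation of V genes. The V, D and J segments are joined before activation, so the segments and the length of the CDR3 at their junction mark the clone, while mutations, in the CDR3 too, and class can differ between its cells. In the mouse, switching to IgG2b can be driven by transforming growth factor beta and by T-independent stimuli, and IgG2b binds activating Fc receptors and complement. Ighg2b lies on chromosome 12 (113304314 to 113307933, mm10) between Ighg1 (113326541 to 113330523) and Ighg2c (113287389 to 113288932).

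A library held 11666 to 14732 contigs and 754954 to 1155339 unique molecular identifiers (UMIs, each marking 1 captured transcript), with the lower UMI totals in WT. The median IgG2b cell had 19 heavy-chain UMIs (range 1 to 11150) and 1132 heavy-chain reads, and 69 of the 609 cells had fewer than 5 heavy-chain UMIs. Of 734 barcodes with an IGHG2B contig, 58 were left out for more than 1 heavy chain, 35 for no light chain and 32 for more than 1 light chain. Any 2 libraries shared 28 to 54 cell barcodes (median 33.5), of which none had the same heavy CDR3 and none was IgG2b in both libraries. Contigs of receptor loci hold no transcripts of germinal-centre markers or of Dtx1, so neither the cell type nor the knockout could be checked. No T-cell receptor contig was listed, and IGHV7-1, IGHV11-2 and IGHV12-3, which are typical of B-1 cells, were at 0 of 609 IgG2b cells, which allows a share of up to 0.493% (counting error only). Cells with over 1000 heavy-chain UMIs were 6 of 426 WT and 5 of 183 DTX1_KO IgG2b cells (1.41% and 2.73%), against 0.105% and 0.0737% of IgM and 0.478% and 0.348% of IgG1 cells.

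Libraries of 1 label shared IgG2b clones. A clone shared its IGHV, IGHJ and both light segments and the length of the heavy junction, with junction nucleotides joined at an identity of at least 0.85. Of 79 WT clones with 2 or more IgG2b cells, 71 lay in more than 1 library and 6 in all 4, and of 37 DTX1_KO clones 33 lay in more than 1 library. No heavy V gene with the same heavy CDR3 occurred in IgG2b cells of both labels. The 4 libraries of a label thus shared clones as portions of 1 pool of cells would. The standard deviations and p-values below measure the spread between such portions, and the WT and DTX1_KO comparisons set 1 pool against another rather than genotypes across mice.

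IgG2b cells formed a smaller part of the switched cells in DTX1_KO libraries. They made up 27.4, 33.2, 31.7 and 30.4% of switched cells in WT 1 to 4 and 13.0, 12.6, 11.8 and 12.9% in DTX1_KO 1 to 4. The groups did not overlap, and the means were 30.6% ± 2.45 (SD, n = 4) and 12.6% ± 0.517 (n = 4; exact two-sided permutation p = 0.0286, the smallest that 70 assignments allow; adjusted p = 0.106). Of all cells with a constant gene, IgG2b cells were 2.29% ± 0.322 in WT and 0.838% ± 0.0590 in DTX1_KO (n = 4 each; exact permutation p = 0.0286). The 8 libraries gave 92, 125, 107 and 102 IgG2b cells in WT and 51, 45, 46 and 41 in DTX1_KO. IgG1, the class of the next gene upstream, moved the other way in number, from 627 WT to 1151 DTX1_KO cells, so that 67.9 IgG2b cells per 100 IgG1 cells were found in WT and 15.9 in DTX1_KO. IgG3 cells, whose gene lies upstream of Ighg1, were 272 in WT and 103 in DTX1_KO, IgG2c cells 53 and 20, IgA cells 9 and 1, and IgE cells 0 in both. With each clone counted once the difference in the share of switched cells was -17.9 points in place of -18.1. The difference in the share of all cells was -2.28 points with each clone counted once and -0.944 points where only cells of 10 to 40 heavy-chain UMIs were kept, in place of -1.45 (exact permutation p = 0.0286 for each).

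**Figure D1:**
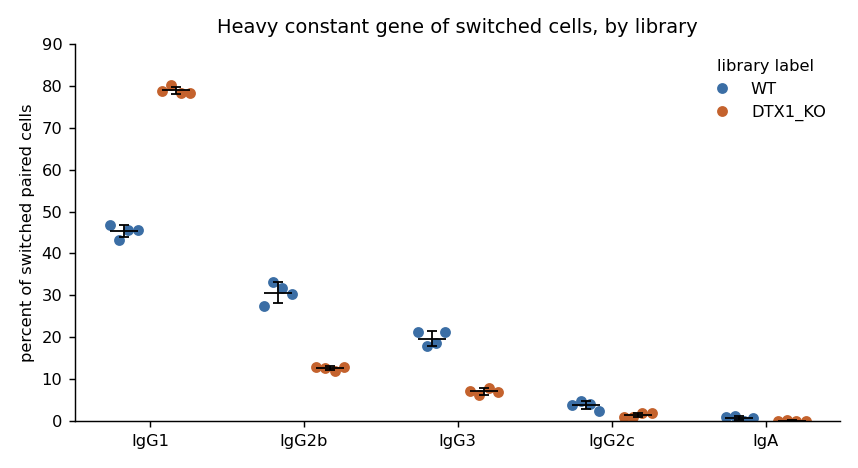
Percent of switched paired cells that carried each heavy constant gene, 1 point per library, with the mean and SD of 4 libraries in black, for WT and DTX1_KO labels. IgG2b lies between 27.4 and 33.2% in WT and between 11.8 and 13.0% in DTX1_KO libraries, with no overlap.

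In this family, 37 values of IgG2b cells were compared between the labels, 10 had an exact permutation p under 0.05, and no adjusted p was under 0.05 (the smallest was 0.106). With 4 libraries a group, 0.0286 was the smallest p possible, so each of the 10 is a set of libraries that did not overlap between the labels. The words higher and lower below describe those means.

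Most IgG2b clones held a single IgG2b cell, and a minority had a sister cell of another class. In WT, 271 clones held the 426 IgG2b cells, and 192 of them (70.8%) had a single IgG2b cell. In DTX1_KO, 119 clones held 183 cells, and 82 (68.9%) had a single IgG2b cell. An IgM cell of the same clone was found anywhere in the pool for 88 WT clones (32.5%) and 33 DTX1_KO clones (27.7%), and an IgG1 cell for 41 (15.1%) and 16 (13.4%). IgG1 clones held an IgM cell at similar rates, 133 of 472 (28.2%) in WT and 199 of 767 (25.9%) in DTX1_KO. An IgG3 cell accompanied 15 WT and 4 DTX1_KO clones, IgG2c 5 and 0, and IgA 1 and 0. Within a library, 23.9, 20, 20.6 and 18.6% of WT IgG2b cells and 29.4, 26.7, 19.6 and 14.6% of DTX1_KO IgG2b cells had an IgM sister, and the groups overlapped (exact permutation p = 0.629). The share of cells with an IgM sister was 21.7% for IgG2b and 19.0% for IgG1 (mean of 8 libraries; difference 2.71 points ± 5.47 SD; exact sign-flip permutation p = 0.195). Compared with IgM cells of the same library, fewer IgG2b cells sat in clones of 2 or more cells (37.5% against 52.8%; lower in 7 of 8 libraries; exact permutation p = 0.0156, adjusted p = 0.0385). With each clone counted once, this difference turned to +6.33 points (exact permutation p = 0.0234).

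The 10 clones with most IgG2b cells held 5 to 9 of them, 8 were WT, and 3 used the light gene IGKV1-110. Of all 609 IgG2b cells, 426 were WT and 98 carried IGKV1-110. The heavy CDR3s of these 10 clones are shown as the junction from the conserved cysteine codon (tgt) to the tryptophan codon (tgg). They let the receptors of these clones be recognised. Each line gives the most common nucleotide sequence among the IgG2b cells of the clone, 5′ to 3′, with capitals at bases at which the IgG2b cells of the clone differed.
IGHV1-4/IGKV6-14 (WT): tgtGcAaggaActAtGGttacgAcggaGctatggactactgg
IGHV1-42/IGKV1-117 (WT): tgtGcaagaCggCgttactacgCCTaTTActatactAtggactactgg
IGHV1-62-2/IGKV2-137 (DTX1_KO): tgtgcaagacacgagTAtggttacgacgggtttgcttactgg
IGHV1-42/IGKV1-110 (WT): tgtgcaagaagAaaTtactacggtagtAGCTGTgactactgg
IGHV1-81/IGKV1-110 (WT): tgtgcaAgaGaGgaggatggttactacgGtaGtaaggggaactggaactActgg
IGHV6-6/IGKV6-15 (DTX1_KO): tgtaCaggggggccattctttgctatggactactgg
IGHV1-43/IGKV1-110 (WT): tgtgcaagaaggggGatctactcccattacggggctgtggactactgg
IGHV1-75/IGKV4-68 (WT): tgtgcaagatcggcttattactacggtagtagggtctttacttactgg
IGHV1-76/IGKV14-111 (WT): tgtGcaagagggggGtActttgactActgg
IGHV1-85/IGKV1-135 (WT): tgtgcaagggggcTgggacgtggggactgg
The junctions were 30 to 54 nucleotides long and had 0 to 10 variable positions. The clone IGHV1-75/IGKV4-68 had the same CDR3 in all 5 IgG2b cells. The largest clone, IGHV1-4/IGKV6-14, had 9 IgG2b cells with 8 distinct CDR3s and was spread over the 4 WT libraries as 2, 1, 3 and 3 cells. At an identity of at least 0.95 its IgG2b cells split into 2 clones, as did those of 4 other clones of the 10. IGHV1-42/IGKV1-117 held 8 IgG2b, 7 IgM, 1 IgG3 and 3 IgA cells, and IGHV1-76/IGKV14-111 held 5 IgG2b, 6 IgM and 4 IgG1 cells. IGHV1-81/IGKV1-110 and IGHV6-6/IGKV6-15 consisted of IgG2b cells, 6 and 5 of them, with no listed cell of another class.

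**Figure D2:**
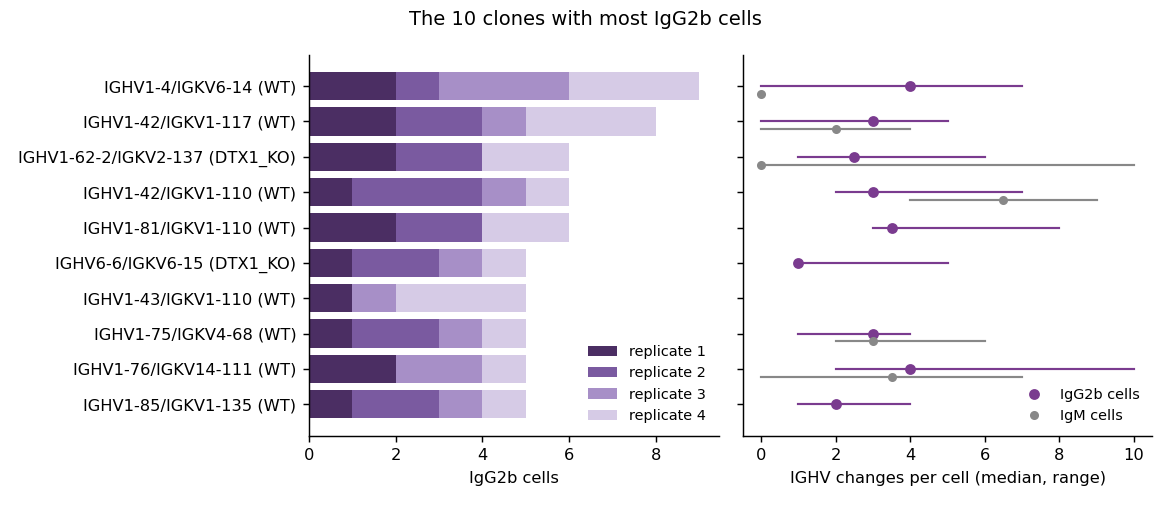
Left, IgG2b cells of the 10 clones with most of them, stacked by replicate of the label named in brackets. Right, the median and range of IGHV changes per cell for IgG2b (purple) and IgM (grey) cells of the clone. IGHV1-62-2/IGKV2-137 has a median of 2.5 changes in IgG2b and 0 in IgM cells, and IGHV1-43 had no germline sequence here, so its row is empty.

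The 3 clones with most IgG2b cells that also held an unmutated IgM cell show an unmutated and a switched receptor of 1 clone side by side. For each, the V region from framework 1 to framework 3 (285 nucleotides, 5′ to 3′) is given for the unmutated IgM cell, which equals the germline, and for the IgG2b cell with most changes, with capitals at the changed bases.
IGHV1-4/IGKV6-14, unmutated IgM cell: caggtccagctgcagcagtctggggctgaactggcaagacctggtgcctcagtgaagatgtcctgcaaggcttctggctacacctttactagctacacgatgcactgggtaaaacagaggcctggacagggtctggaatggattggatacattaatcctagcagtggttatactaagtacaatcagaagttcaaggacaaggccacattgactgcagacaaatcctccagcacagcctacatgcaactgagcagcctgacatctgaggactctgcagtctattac
IGHV1-4/IGKV6-14, IgG2b cell: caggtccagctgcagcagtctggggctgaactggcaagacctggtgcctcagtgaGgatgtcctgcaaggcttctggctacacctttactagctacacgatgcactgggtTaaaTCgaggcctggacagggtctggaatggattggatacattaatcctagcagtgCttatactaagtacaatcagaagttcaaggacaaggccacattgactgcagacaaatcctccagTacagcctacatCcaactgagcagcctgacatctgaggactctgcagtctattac
IGHV1-42/IGKV1-117, unmutated IgM cell: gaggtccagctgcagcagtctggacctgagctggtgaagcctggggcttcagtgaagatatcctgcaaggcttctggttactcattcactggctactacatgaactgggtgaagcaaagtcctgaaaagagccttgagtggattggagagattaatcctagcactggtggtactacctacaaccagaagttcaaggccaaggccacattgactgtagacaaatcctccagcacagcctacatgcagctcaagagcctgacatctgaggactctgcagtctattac
IGHV1-42/IGKV1-117, IgG2b cell: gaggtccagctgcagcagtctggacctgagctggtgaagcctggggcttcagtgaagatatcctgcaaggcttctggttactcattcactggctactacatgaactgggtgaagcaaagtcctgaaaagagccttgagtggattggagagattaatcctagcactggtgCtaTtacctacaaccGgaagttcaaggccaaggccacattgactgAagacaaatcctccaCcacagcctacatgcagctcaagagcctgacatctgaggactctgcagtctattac
IGHV1-62-2/IGKV2-137, unmutated IgM cell: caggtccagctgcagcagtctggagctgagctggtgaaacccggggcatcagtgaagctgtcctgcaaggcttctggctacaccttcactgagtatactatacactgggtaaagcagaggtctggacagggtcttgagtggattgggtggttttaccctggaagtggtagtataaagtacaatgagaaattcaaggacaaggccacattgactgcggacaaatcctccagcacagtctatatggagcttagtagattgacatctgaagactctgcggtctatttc
IGHV1-62-2/IGKV2-137, IgG2b cell: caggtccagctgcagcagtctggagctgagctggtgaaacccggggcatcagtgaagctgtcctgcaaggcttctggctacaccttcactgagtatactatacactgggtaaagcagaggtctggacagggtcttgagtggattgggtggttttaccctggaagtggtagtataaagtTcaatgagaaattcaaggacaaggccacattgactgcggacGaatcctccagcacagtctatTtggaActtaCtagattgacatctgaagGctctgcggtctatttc
The V genes lie on chromosome 12 at 114487136 to 114487429 (IGHV1-4), 114937154 to 114937544 (IGHV1-42) and 115446417 to 115446710 (IGHV1-62-2). Positions are counted from 1 at the first base of framework 1, and residues from 1 at its first codon, translated from the nucleotides. The IgG2b cell shown for IGHV1-4 had 7 changes, 5 of them replacing a residue and 1 in a CDR. Over the 9 IgG2b cells, 24 positions were changed in at least 1 cell and none in all, and the base changed most often was 167, in CDR2, in 4 of 9 cells, 2 of them with G167A (G56D). A149T (Y50F) was found in 3 of 9. The cell shown for IGHV1-42 had 5 changes, all replacements, and 18 positions were changed in at least 1 of the 8 IgG2b cells, 2 of which were also changed in an IgM cell. The DTX1_KO clone IGHV1-62-2/IGKV2-137 was the only one of the 3 with many IgM cells, 80, of which 74 were unmutated. Its 6 IgG2b cells had 1 to 6 changes, and 5 of 6 carried C103A (H35N, in framework 2), a base that was changed in 3 of 80 IgM cells. The cell shown had 6 changes without that one, 5 of them replacements and none in a CDR.

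IgG2b cells were mutated far more often than IgM cells of the same libraries and to about the same level as IgG1 cells. The mutation level is the percent of V nucleotides from framework 1 to framework 3 that differ from the germline, which was taken as the most common sequence over clones for genes with at least 20 clones. It could be read in 592 of 609 IgG2b cells. Over 8 libraries the heavy V level was 1.07% ± 0.192 (SD) in IgG2b and 0.269% ± 0.101 in IgM cells, higher in 8 of 8 libraries by 0.801 points (exact sign-flip permutation p = 0.00781; adjusted p = 0.025). The share of cells with no heavy V change was 11.0% in IgG2b and 76.3% in IgM cells, a difference of -65.3 points (exact permutation p = 0.00781). The IGKV level was 0.541% against 0.132% (exact permutation p = 0.00781), so the light chain of IgG2b cells had changed as well. Among cells with at least 1 change the gap was small, 3.41 changes per IgG2b and 3.16 per IgM cell (exact permutation p = 0.0312; adjusted p = 0.0714). That call was lost without any 1 of WT 1 to 4 or DTX1_KO 2, with differences of 0.21 to 0.33 changes over the 8 omissions, and where only cells of 10 to 40 heavy-chain UMIs were kept. Against IgG1 cells, the heavy V level of IgG2b cells differed by -0.0159 points ± 0.0926 (SD of 8 library differences; exact permutation p = 0.656), and the IGKV level by 0.0054 points ± 0.105 (exact permutation p = 0.875). Of the 33 values tested against IgG1 cells, V genes aside, only the share of replacement changes differed in the same direction in 8 of 8 libraries. It was 71.5% in IgG2b against 76.1% in IgG1 cells (exact permutation p = 0.00781), with an adjusted p of 0.172. Where only cells of 10 to 40 heavy-chain UMIs were kept, its exact permutation p was 0.0625.

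Heavy V mutation of IgG2b cells was lower in the DTX1_KO libraries. It was 1.2, 1.26, 1.25 and 1.25% in WT 1 to 4 and 0.929, 1.02, 0.815 and 0.836% in DTX1_KO 1 to 4. No DTX1_KO library reached the lowest WT library, and the means were 1.24% ± 0.0268 and 0.900% ± 0.0940 (SD, n = 4 each; exact permutation p = 0.0286; adjusted p = 0.106). The share of unmutated IgG2b cells was 6.82, 5.65, 9.62 and 7.14% in WT and 14.6, 13.3, 13.0 and 17.9% in DTX1_KO, again without overlap (means 7.31% ± 1.67 and 14.7% ± 2.25; exact permutation p = 0.0286). Cells with 5 or more heavy V changes were 28.9% ± 2.90 of WT and 16.1% ± 3.53 of DTX1_KO IgG2b cells (exact permutation p = 0.0286, and 0.0571 with at least 5 heavy-chain UMIs). By count, 30 of 414 WT cells had no change, 123 had 1 to 2, 140 had 3 to 4 and 121 had 5 or more, while of 178 DTX1_KO cells 26, 81, 42 and 29 did. The median was 3 changes in WT and 2 in DTX1_KO, and the highest counts were 13 and 12. IGKV mutation was 0.640% ± 0.0459 in WT and 0.441% ± 0.0808 in DTX1_KO (n = 4 each; exact permutation p = 0.0286). IgM cells (0.363% and 0.175%) and IgG1 cells (1.32% and 0.856%) of the same libraries had the same order of the labels in heavy V mutation. The difference between the labels in the gap of IgG2b to IgM was not called for the heavy V level.

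Heavy-chain UMIs moved with the labels too. Their median per IgG2b cell was 17, 14, 20 and 18 in WT and 22, 30, 21.5 and 23 in DTX1_KO, higher in each DTX1_KO than in each WT library. Within DTX1_KO, replicate 2 had both the highest UMI count and the highest heavy V mutation. Within WT no single order held. Replicate 2 had the lowest UMI count and the highest heavy V mutation (1.26%). Replicate 3 had the highest UMI count and nearly the same mutation (1.25%). From WT 1 to WT 4 to WT 3, heavy V mutation rose with the UMI count. Where only cells of 10 to 40 heavy-chain UMIs were kept, the mutation difference was -0.294 points in place of -0.339, with an exact permutation p of 0.0571, and with at least 5 UMIs the difference in unmutated cells was 6.30 points in place of 7.42 (p = 0.0571, exact permutation test). Changes per mutated cell were 3.81 ± 0.117 in WT and 3.01 ± 0.290 in DTX1_KO. This call was lost without WT 2, WT 3 or WT 4, with differences of -0.92 to -0.69 changes over the 8 omissions, and under both limits on heavy-chain UMIs. Replacement changes were 74.2% of WT and 68.7% of DTX1_KO changes, a call lost without any 1 WT library (-6.68 to -4.66 points) and under 4 of 5 other settings (exact permutation p up to 0.0857). The ratio of the change rate in CDRs to that in frameworks was 2.94 ± 0.183 and 2.57 ± 0.536, and 72.6% and 69.1% of changes at C or G fell in the deaminase motifs WRC or GYW (W is A or T, R is A or G, Y is C or T). Neither was called between the labels (exact permutation p = 0.229 and 0.429) or against IgM cells (p = 0.148 and 0.703, exact permutation test). The ratio turned on DTX1_KO 2. Without it the difference between the labels was -0.11 in place of -0.38, and the difference from IgM cells was 0.486 in place of 0.313 (exact permutation p = 0.0156).

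**Figure D3:**
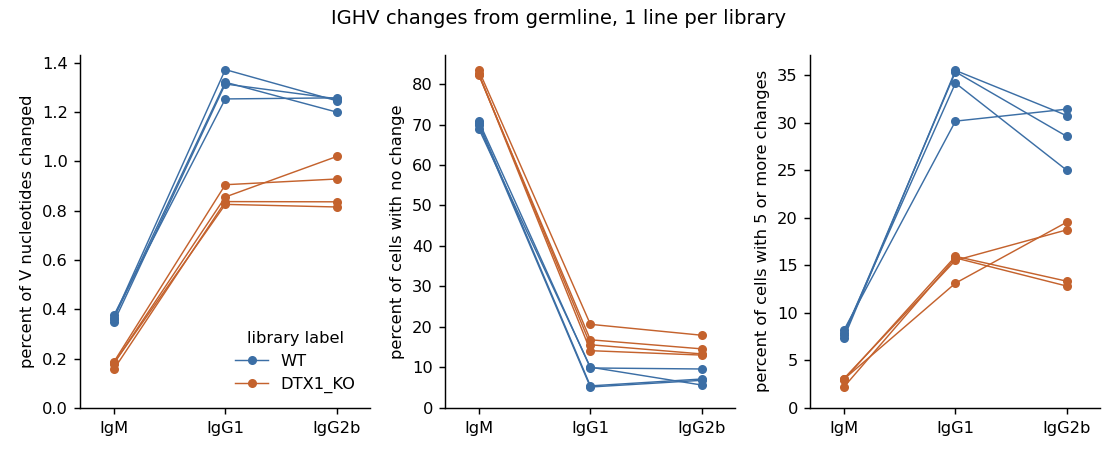
Heavy V changes from germline by class, 1 line per library: the mean percent of V nucleotides changed, the percent of cells without a change and the percent with 5 or more changes. IgG2b lies near IgG1 and above IgM in mutation in all 8 libraries, and the 4 WT libraries lie above the 4 DTX1_KO libraries in each class of the first panel.

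Within clones that held both classes, the gap to IgM was smaller than over all cells. In 86 WT clones with a mutation value for both, IgG2b cells averaged 3.32 and IgM cells 2.46 changes, and the IgG2b mean was higher in 53 clones, equal in 8 and lower in 25. In 32 DTX1_KO clones the means were 2.48 and 1.64, with IgG2b higher in 19, equal in 3 and lower in 10. Beside IgG1 sisters the order was the other way in most clones. In 41 WT clones IgG2b cells averaged 3.69 and IgG1 cells 4.38 changes, with IgG2b higher in 13 and lower in 25, and in 15 DTX1_KO clones 1.37 and 2.41, with IgG2b higher in 4 and lower in 9. Clones are not replicates of a condition, so these counts have no test. IgG2b cells with and without an IgM sister in their library had similar means, 1.15% and 1.27% in WT and 0.942% and 0.891% in DTX1_KO.

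**Figure D4:**
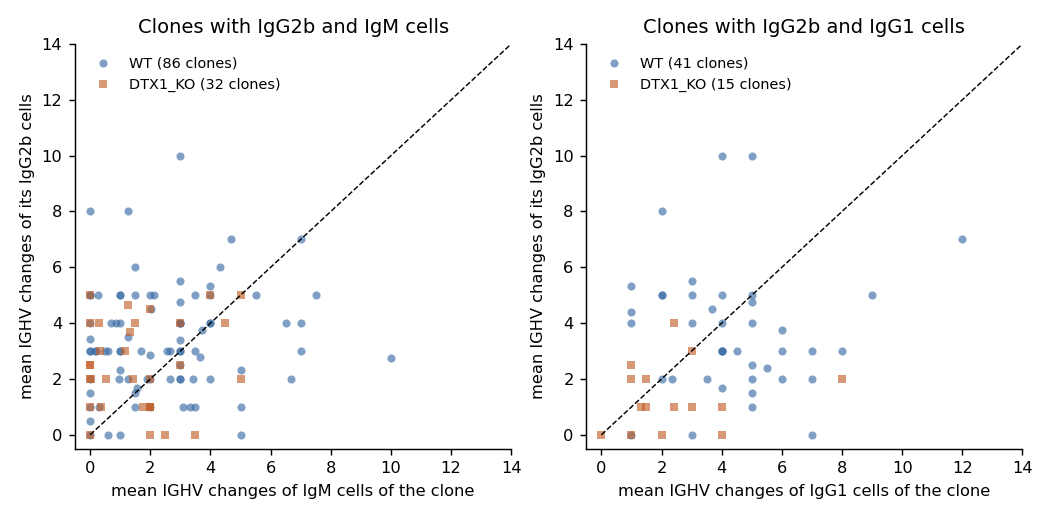
Mean heavy V changes of the IgG2b cells of a clone against those of its IgM cells (left) and IgG1 cells (right), 1 point per clone, with the line of equality dashed. Of WT clones, 53 of 86 lie above the line beside IgM and 13 of 41 beside IgG1.

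Some V positions were changed repeatedly in separate clones. Positions changed in IgG2b cells of at least 5 clones were listed for the most used genes, so they were chosen by their counts and are given without a test. The windows below show the germline and the most common change (capital) for 4 of them, 1 for each of 4 genes.
IGHV1-81, germline: tacaccttcacaagctatggtataagc
IGHV1-81, G92A: tacaccttcacaaActatggtataagc
IGHV1-9, germline: attttacctggaagtggtagtactaac
IGHV1-9, T165A: attttacctggaagAggtagtactaac
IGKV1-117, germline: agatctagtcagagcattgtacatagt
IGKV1-117, G83A: agatctagtcagaAcattgtacatagt
IGKV14-111, germline: aatagctatttaagctggttccagcag
IGKV14-111, G101C: aatagctatttaaCctggttccagcag
In IGHV1-81, base 92 was changed in 13 of 61 IgG2b cells from 10 of 39 clones. These were 7 of 46 WT and 6 of 15 DTX1_KO cells, and 9 of the 13 carried S31N in CDR1. Among IGHV1-81 cells of the other classes, the same base was changed in 208 of 2404 IgM cells (8.65%) and 22 of 116 IgG1 cells (19.0%). Most IgM cells have no change at all, and among cells with at least 1 change the shares were 22.4% in IgG2b, 31.8% in IgM and 19.8% in IgG1. In IGHV1-9, base 165 was changed in 16 of 68 cells from 9 clones, all of which gave S55R in CDR2. It was seen in 15 of 49 WT and 1 of 19 DTX1_KO cells, and 11 of the 16 paired with IGKV1-110, from 4 clones. Among changed cells it was found in 25.0% of IgG2b, 14% of IgM and 12.7% of IgG1 cells. Base 163 of the same codon was changed to give S55R in 6 cells from 5 clones. In IGKV1-117, base 83 (S28N in 6 cells) was changed in 8 of 54 cells from 7 clones. In IGKV14-111, base 101 (S34T in 5 cells) was changed in 7 of 52 cells from 7 clones. The changed cells were 8 of 47 WT and 0 of 7 DTX1_KO cells for IGKV1-117, and 7 of 39 and 0 of 13 for IGKV14-111. With so few DTX1_KO cells, these counts cannot show a difference between the labels. Among cells with at least 1 change in IGKV1-117, base 83 was changed in 19.5% of IgG2b, 18.4% of IgM and 18.2% of IgG1 cells. For base 101 of IGKV14-111 these shares were 20.6%, 9% and 9.2%.

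IgG2b cells used a broad set of V genes with a narrow top. They carried 65 heavy V genes and 63 light V genes, and the 10 most used of each accounted for 302 (49.6%) and 336 cells (55.2%). IGHV1-9 (chromosome 12, 114583569 to 114583862) was carried by 68 cells from 39 clones and IGHV1-81 (115920279 to 115920572) by 62 cells from 39 clones. IGHV1-9 made up 10.9, 8.00, 13.1 and 14.7% of IgG2b cells in WT 1 to 4 and 11.8, 8.89, 13.0 and 7.32% in DTX1_KO 1 to 4, so its ranges in the labels overlapped. IGHV1-62-2, IGHV1-19, IGHV1-64, IGHV1-72, IGHV1-4, IGHV9-3, IGHV1-26 and IGHV1-42 followed with 19 to 25 cells each. IGHV1-72, the gene known from the nitrophenyl response, where it pairs with lambda chains, was carried by 12 WT and 10 DTX1_KO cells, none with a lambda chain. By family, IGHV1 held 339 of 426 WT and 134 of 183 DTX1_KO cells, IGHV2 26 and 8, IGHV8 19 and 6, IGHV9 10 and 11, IGHV14 11 and 6, IGHV5 8 and 4, IGHV6 7 and 7, IGHV7 2 and 4, IGHV4 2 and 1, and IGHV10 2 and 2.

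Against IgM cells of the same libraries, IgG2b cells used more of the IGHV1 family and less of IGHV2, IGHV5 and IGHV8. The IGHV1 family made up 76.2% of IgG2b and 64.5% of IgM cells (higher in 7 of 8 libraries; exact permutation p = 0.0156; adjusted p = 0.0385). IGHV8 made up 3.88% and 8.63%, IGHV2 5.31% and 8.05%, and IGHV5 1.99% and 4.37%, each lower in 8 of 8 libraries (exact permutation p = 0.00781; adjusted p = 0.025). Against IgG1 cells, IGHV5 was 1.99% and 4.44% (exact permutation p = 0.0156) and IGHV1 76.2% and 69.8% (exact permutation p = 0.0391), with adjusted p-values of 0.172 and 0.322. The IGHV1 difference from IgG1 lost its call without any 1 of WT 1 to 4 or DTX1_KO 1 (5.24 to 8.54 points). Where only cells of 10 to 40 heavy-chain UMIs were kept, the IGHV2 difference from IgM was -0.186 points (exact permutation p = 0.859) and the IGHV1 difference 6.62 points (exact permutation p = 0.0859). The IGHV5 calls against both classes were lost there too, and the IGHV1 call against IgG1 under each of 4 other settings.

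At the level of genes, cells per V gene were tested with edgeR's quasi-likelihood test with Benjamini-Hochberg adjustment, with the library as a block for class contrasts. The 3 comparisons share the IgG2b cells. Between IgG2b and IgM cells, 5 of 31 heavy V genes were called (16.1%). IGHV1-9 (log2 fold change 0.78 ± 0.17 SE, adjusted p = 0.0021), IGHV1-19 (1.33, adjusted p = 0.00717) and IGHV1-4 (1.25, adjusted p = 0.0167) were higher in IgG2b cells, and IGHV8-8 (-1.35, adjusted p = 0.0021) and IGHV1-55 (-0.97, adjusted p = 0.0113) lower. IGHV8-8, 2.01% of IgG2b and 5.49% of IgM cells, was lower in 8 of 8 libraries and IGHV1-9 higher in 8 of 8. IGHV1-4 rested in part on the 9-cell clone. It lost its call without WT 2, WT 3 or WT 4 (1.11 to 1.35 over the omissions) and stood at -0.43 where only cells of 10 to 40 heavy-chain UMIs were kept. Scaling by TMM factors in place of cell totals moved the median of all genes by -0.55 and gave 7 lower and 0 higher genes, with no change of sign among these 5. The calls of IGHV1-9, IGHV1-19 and IGHV1-4 were lost with those factors and with DESeq2's own size factors. With each clone counted once IGHV1-19 (0.98, adjusted p = 0.0607), IGHV1-4 (0.79, adjusted p = 0.219) and IGHV1-55 (-0.62, adjusted p = 0.219) lost their calls. IGHV1-9 and IGHV8-8 (-0.98, adjusted p = 0.172) lost theirs where only cells of 10 to 40 heavy-chain UMIs were kept. Between IgG2b and IgG1 cells no heavy V gene of 31 was called (0%), 5 had an unadjusted p under 0.05, and DESeq2 called none under either size factor. The shares of IGHV1-9 and IGHV1-72 were higher and that of IGHV8-8 lower than in IgG1 cells in 8 of 8 libraries, without a call.

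The light gene most used by IgG2b cells was IGKV1-110, a V segment on chromosome 6 (68270527 to 68271265, mm10). It was carried by 98 IgG2b cells from 48 clones, in 22, 21, 19 and 24 cells of WT 1 to 4 and 5, 3, 1 and 3 cells of DTX1_KO 1 to 4. That was 23.9, 16.8, 17.8 and 23.5% of IgG2b cells in the WT and 9.80, 6.67, 2.17 and 7.32% in the DTX1_KO libraries. In WT it was 20.5% ± 3.74 of IgG2b, 9.60% ± 2.84 of IgG1 and 5.20% ± 0.415 of IgM cells (SD, n = 4), and in DTX1_KO 6.49% ± 3.18, 4.18% ± 1.24 and 3.16% ± 0.136. Of 32 light V genes tested between IgG2b and IgM cells, 4 were called (12.5%), and IGKV1-110 led them (log2 fold change 1.8 ± 0.19 SE, or 3.48-fold; adjusted p = 2.29e-16; higher in 7 of 8 libraries). With each clone counted once it was still 1.64. IGKV14-111 (1.35, adjusted p = 3.42e-05) and IGKV1-117 (0.63, adjusted p = 0.0352) were higher in IgG2b cells and IGKV2-137 (-0.76, adjusted p = 0.0352) lower. Over 8 libraries IGKV14-111 was 7.91% of IgG2b, 7.76% of IgG1 and 3.30% of IgM cells. For IGKV1-117 these means were 7.43%, 8.84% and 5.14%. The IGKV1-117 call was lost without WT 2, 3 or 4 or DTX1_KO 4 (0.48 to 0.69), and that of IGKV2-137 without any WT library or DTX1_KO 3 (-0.93 to -0.61). Each was also lost under 6 of 8 other settings. IGKV1-117 stood at 0.22 with DESeq2's own size factors (adjusted p = 0.677), and IGKV2-137 at -0.15 with each clone counted once (adjusted p = 0.971). With TMM factors 2 genes were higher and 2 lower, with the median of all genes moved by -0.32. Against IgG1 cells, IGKV1-110 was the 1 gene called of 30 (3.33%; log2 fold change 0.97 ± 0.25 SE, adjusted p = 0.00329; higher in 7 of 8 libraries). That call was lost without WT 2 (adjusted p = 0.0598) or DTX1_KO 4 (adjusted p = 0.0764), at 0.84 to 1.10 over the omissions. Of 8 other settings, 3 ended it as well. These were the limit to cells of 10 to 40 heavy-chain UMIs, DESeq2's own size factors and TMM factors. With TMM factors IGKV1-110 stood at 0.75, the median of all genes had moved by -0.38 and 1 gene was lower. Over the 8 other settings IGKV1-110 stood at 0.61 to 0.99, with an adjusted p of up to 0.698.

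**Figure D5:**
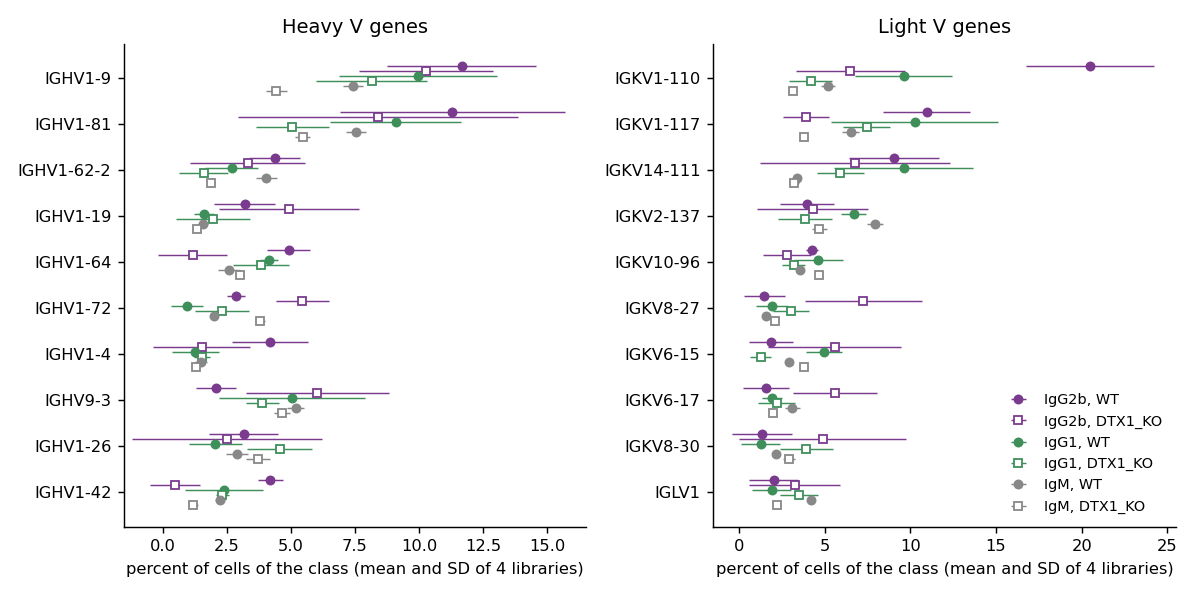
Mean percent of IgG2b (purple), IgG1 (green) and IgM (grey) cells that carried each of the 10 heavy and 10 light V genes most used by IgG2b cells, with the SD of 4 libraries, filled for WT and open for DTX1_KO. IGKV1-110 lies at 20.5% of WT IgG2b cells and at 6.49% in DTX1_KO.

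Between the labels, 6 V genes of IgG2b cells were called. Of 32 heavy V genes 2 were called (6.25%), and of 30 light V genes 4 (13.3%). IGKV1-110 was lower in DTX1_KO (log2 fold change -1.6 ± 0.36 SE, adjusted p = 0.000882), a call lost without DTX1_KO 4 (-1.65, adjusted p = 0.0746), where only cells of 10 to 40 heavy-chain UMIs were kept (-1.46) and with DESeq2's own size factors (-2.06). IGKV1-117, 7, 13, 14 and 13 cells in WT and 1, 2, 2 and 2 in DTX1_KO, was lower (-1.49, adjusted p = 0.0306). IGKV8-27, 1, 0, 3 and 2 cells in WT and 3, 2, 3 and 5 in DTX1_KO, was higher (2.21, adjusted p = 0.0183), and so was IGKV12-41 (3.11, adjusted p = 0.0408), which was carried by 1 WT and 6 DTX1_KO cells. IGHV2-5 was carried by 4, 6, 2 and 3 cells in WT and by 0 of 183 in DTX1_KO, at least 2.15-fold lower against a floor of 3 cells over the group (adjusted p = 0.0214). IGHV1-59 was carried by 0, 0, 2 and 1 cells in WT and 3, 2, 2 and 2 in DTX1_KO (log2 fold change 2.55, adjusted p = 0.0214). In IgM and in IgG1 cells of the same libraries, the mean share of each of these 6 genes differed between the labels in the same direction. IGHV2-5 was 4.48% of WT and 2.26% of DTX1_KO IgM cells, and 2.55% and 0.618% of IgG1 cells. IGHV1-59 was 0.842% and 1.40% of IgM cells, and 0.955% and 2.43% of IgG1 cells. Whether the label difference of a gene was larger in IgG2b cells was not tested. Of these 6 genes only IGKV1-110 kept its call with each clone counted once. The calls of IGHV2-5 and IGHV1-59 were lost without WT 1, WT 2 or any 1 DTX1_KO library (adjusted p up to 0.0673 and 0.0911). Those of IGKV1-117 were lost without WT 2, WT 4 or any 1 DTX1_KO library (-1.61 to -1.25), of IGKV8-27 without WT 1, WT 2 or DTX1_KO 4 (1.74 to 2.71), and of IGKV12-41 without WT 1, 2 or 4 or DTX1_KO 1, 2 or 4 (2.58 to 4.31). Of 8 other settings, 3 ended the call of IGHV2-5, 6 those of IGHV1-59 and IGKV8-27, and 7 those of IGKV1-117 and IGKV12-41. With TMM factors 4 heavy and 4 light genes were lower and 0 higher, the median having moved by -0.47 and -0.72.

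IGKV1-110 light chains paired most with IGHV1-9 and IGHV1-81. The 98 cells used 18 heavy V genes, of which IGHV1-9 took 26 cells from 11 clones (26.5%, against 16.7% of IGKV1-110 IgM cells) and IGHV1-81 24 cells from 11 clones (24.5%, against 13.2%). IGHV2-5 followed with 10 cells from 4 clones, all WT. These shares pool the labels, which differ in make-up. Of the 98 cells, 86 were WT and 12 DTX1_KO, and IGHV1-9 was carried by 25 and 1 of them and IGHV1-81 by 19 and 5. In IgM cells with any light gene, IGHV1-9 was also more used in WT (7.42%) than in DTX1_KO (4.43%). Heavy CDR3s beside IGKV1-110 averaged 15.6 residues, against 14.3 beside other light genes. IGKV1-117 also paired most with IGHV1-9 (15 of 54 cells) and IGHV1-81 (13), with a mean CDR3 of 15.9 residues, and IGKV14-111 with IGHV1-4 (9 of 52) and IGHV1-55 (8), with 13.3. In all, 274 distinct heavy and light V pairs were found, 171 of them in 1 cell, and the 10 most common pairs held 146 cells. IGHV1-9 with IGKV1-110 was 5.87% of WT IgG2b cells, 0.968% of WT IgM and 1.44% of WT IgG1 cells, with 5, 4, 8 and 8 cells in WT 1 to 4 and 1 cell in DTX1_KO. IGHV1-59 with IGKV8-27 had the opposite lean, 2 WT and 8 DTX1_KO cells, of 1 and 4 clones. IGHV1-62-2 with IGKV2-137 was held by 13 WT cells of 7 clones and 6 DTX1_KO cells of 1 clone. These shares are descriptions without a test.

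IGHJ2 was the most used heavy J segment, in 156 WT and 52 DTX1_KO cells, before IGHJ4 (111 and 53), IGHJ3 (94 and 45) and IGHJ1 (65 and 33). None of the 4 was called between the labels or against IgM or IgG1 cells by the exact permutation test (smallest p = 0.143). Among kappa J segments, IGKJ2 came first (151 and 63 cells), then IGKJ1 (127 and 47), IGKJ5 (87 and 37) and IGKJ4 (52 and 30), again with no call. Lambda chains were carried by 9 WT and 6 DTX1_KO cells, all IGLV1 with IGLJ1, and IGLV2 and IGLV3 were at 0 of 609. A D gene was named by the deposited annotation in 101 of 609 IgG2b cells (16.6%), against 23.0% of IgM and 21.3% of IgG1 cells. The most frequent, IGHD1-1, was named in 22 cells, so D use was not compared.

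The heavy CDR3 of IgG2b cells averaged 14.4 residues and ran from 8 to 21 in WT and from 8 to 20 in DTX1_KO. It was 15, 14.2, 14.7 and 14.9 residues in WT 1 to 4 and 14.7, 14.1, 13.9 and 14 in DTX1_KO 1 to 4, and the ranges overlapped (exact permutation p = 0.0571). Net charge (lysine and arginine minus aspartate and glutamate) was 0.116 in IgG2b and -0.0688 in IgM cells, higher in 8 of 8 libraries (exact permutation p = 0.00781; adjusted p = 0.025), and 0.0352 in IgG1 cells (p = 0.102, exact permutation test). Mean Kyte-Doolittle hydropathy, on which higher values are more hydrophobic, was -0.518, -0.479, -0.560 and -0.603 in WT and -0.375, -0.460, -0.413 and -0.374 in DTX1_KO (exact permutation p = 0.0286; adjusted p = 0.106). This call was lost without WT 3, WT 4 or DTX1_KO 1, 3 or 4 (0.114 to 0.155), and where only cells of 10 to 40 heavy-chain UMIs were kept. IgG1 cells of the same libraries had the same order of the labels without overlap, with mean hydropathy of -0.502 in WT and -0.449 in DTX1_KO. In IgM cells the means were -0.459 and -0.463. Tyrosine made up 18.3% and 17.5% of CDR3 residues in the labels (exact permutation p = 0.0857).

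The depth of the contigs differed by class as well as by label. Over 8 libraries the median heavy-chain UMI count was 20.7 in IgG2b, 32.9 in IgM and 16.4 in IgG1 cells, and that of the light chain 91.7, 70 and 89.3. The heavy-chain count of IgG2b cells was lower than that of IgM cells in 8 of 8 libraries (exact permutation p = 0.00781; adjusted p = 0.025) and higher than that of IgG1 cells in 7 of 8 (exact permutation p = 0.0156; adjusted p = 0.172). The light-chain count was higher than in IgM cells in 7 of 8 libraries (exact permutation p = 0.0156; adjusted p = 0.0385). The part of depth in the class and label differences beyond the settings named here was not tested. A single cell was 0.8 to 1.09% of the IgG2b cells of a WT library and 1.96 to 2.44% of a DTX1_KO library, which limits what a share of a single gene can show in the knockout.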

How the data were processed

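Heavy- and light-chain contigs of 8 libraries were deposited by the authors as Cell Ranger annotations, with UMI and read counts per contig, per the file headers. The submitters' processing notes name Cell Ranger, R 4.3.1 and mm10, and for the version of Cell Ranger the sources used here give nothing. All deposited contigs were flagged as cell, high confidence and productive. Cells with exactly 1 heavy and 1 light contig were kept, and no doublet caller was run. Clones, germlines and changes were computed in Python 3.11.15 with pandas 2.3.3, NumPy 2.4.6 and SciPy 1.17.1, and figures with matplotlib 3.10.9. Cells per V gene (genes at a mean share of at least 1%) were tested in R 4.3.3 with edgeR 4.0.16, with cell totals as library sizes, after a test on simulated data, and with DESeq2 1.42.0 as an alternative. Values were compared over libraries by exact two-sided permutation tests, over 70 assignments between labels and 256 sign flips between classes, with Benjamini-Hochberg adjustment within each family. Clone values were also taken with libraries thinned to the 4585 cells of the smallest, a choice made after seeing the data. Gene coordinates are those of RefSeq for GRCm38.p6, in which 236 of 236 gene names matched. Named were the 10 most used heavy and light V genes, pairs and clones, up to 10 called V genes per comparison, and all J genes, families and constant genes. Members and lists were chosen with earlier results of these data known.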

Additional observations from a re-analysis of the deposited data

Results flagged for a closer look

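Of 74 groups of 4 libraries examined, 3 held a library set apart from the other 3 by more than Dixon's critical value. Chance flags about 1 in 20 groups. DTX1_KO 2 had a CDR to framework change ratio of 1.76, against 2.8 to 2.89 in the other DTX1_KO libraries. WT 3 had IGHJ2 in 32.7% of IgG2b cells, with the nearest WT library at 37.6%. DTX1_KO 3 had IGHJ3 in 13.0% of IgG2b cells, with the nearest DTX1_KO library at 27.5%.

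The gap between IgG2b and another class differed between the labels in 10 values, each with an exact permutation p of 0.0286, the smallest possible, and none with an adjusted p under 0.05 (smallest 0.131 for the gap to IgM and 0.314 for the gap to IgG1). All are given as DTX1_KO minus WT. For the gap to IgM, the share of IgG2b cells of the IGHV8 family differed by -3.61 points and the IGKV mutation level by -0.108 points. The share with 5 or more heavy V changes differed by -7.90 points and the share with none by -5.21 points. Heavy CDR3 hydropathy differed by 0.139, tyrosine by -1.53 points and the median heavy-chain UMI count by -10.4. For the gap to IgG1, the IGHV1 family differed by -10.2 points, changes per mutated cell by 0.321 and kappa cells without a change by -8.10 points. Of the 10, the tyrosine value was the 1 that kept its call with each library left out in turn. It was lost with each clone counted once (-1.07, exact permutation p = 0.0571) and where only cells of 10 to 40 heavy-chain UMIs were kept (-1.70, exact permutation p = 0.114). None of the 10 kept its call under every other setting.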

How the results depend on the processing

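Of the 10 values called between the labels, 6 kept their call with each library left out in turn and 4 under every other setting tried. Of 14 called against IgM, 13 and 8 did, and of 4 called against IgG1, 3 and 0. The labels' replicate numbers did not pair the libraries: deviations of same-numbered libraries correlated at -0.0874, -0.195, 0.269 and 0.0815 over 62 V genes. With the replicate number as a block, where 4 pairs allow no exact permutation p under 0.125, the heavy V mutation difference was -0.339, the IgG2b share of cells -1.45, the share of switched cells -18.1 and unmutated cells 7.42 points, each at p = 0.125. Where only cells of 10 to 40 heavy-chain UMIs were kept, the mutation difference was -0.294 (exact permutation p = 0.0571), and with at least 5 UMIs that of unmutated cells was 6.30 (exact permutation p = 0.0571). Of 242 values, 84 changed sign under at least 1 setting, 80 of them called neither before nor after. The other 4 were IGKJ2 between labels at 10 to 40 UMIs (8.45 points), the label difference in the heavy-chain UMI gap to IgM at 10 to 40 UMIs (0.875, where the setting itself bounds the UMIs), clones of 2 or more cells against IgM with each clone counted once (6.33 points) and IGHV1-4 against IgM at 10 to 40 UMIs (-0.43). Where no cause is stated, the cause was not tested.

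Heavy V genes between labels numbered 2, and 4 with TMM factors or all barcodes with 1 heavy chain, 1 with at least 5 or with 10 to 40 UMIs, and 0 with each clone counted once, the replicate block or DESeq2 under both size factors (0 to 2 with a library left out). Light V genes between labels numbered 4, and 2 with no filter, 1 with 10 to 40 UMIs, at least 5 UMIs, each clone counted once or DESeq2 with size factors from cells, and 0 with DESeq2's own factors (0 to 5 with a library left out), while the replicate block gave 3. Heavy V genes against IgM numbered 5, and 3 with 10 to 40 UMIs or DESeq2's own factors and 12 with no filter. Light V genes against IgM numbered 4, and 2 with all barcodes with 1 heavy chain or DESeq2 with size factors from cells and 7 with no filter (2 to 5 with a library left out). Against IgG1, heavy V genes numbered 0, and 2 with 10 to 40 UMIs and 1 with TMM factors, and light V genes 1, 3 with DESeq2 and size factors from cells and 0 with its own factors (0 to 2 with a library left out). With 41 to 51 IgG2b cells in a DTX1_KO library, 0 cells of a gene allows a share of up to 5.88 to 7.32% there.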
